A study of Mus musculus with 6 samples.

Results

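The genes described here set how much mitochondrial machinery a cell makes, and were followed in fetal mouse hearts that carry or lack a functional Hif1a allele in the Nkx2-5 lineage. These 10 are the coactivators Ppargc1a and Ppargc1b, the nuclear receptors Esrra, Esrrg, Ppara and Ppard, the transcription factors Nrf1 and Gabpa, and the mitochondrial transcription proteins Tfam and Tfb2m. Members were taken by gene symbol from the deposited expression table, which held all 10 of them among 15118 genes. That rule uses no measured value, but the members were chosen with earlier results of these data known. Expression was compared between 3 control hearts (2, 5 and 9) and 3 mutant hearts (5, 8 and 10), all whole hearts of Black-Swiss embryos at E12.5. Every embryo carried Cre recombinase at the NKX2-5 locus (NKX2-5 Cre/WT), and thus a single wild-type copy of that locus. Control hearts were Hif1a WT/flox and mutant hearts Hif1a Null/flox. After recombination control cells still have their wild-type allele and mutant cells have no functional one. Cells in which Cre was never active keep the floxed allele, so the mutant hearts also hold cells with a functional copy of Hif1a. The labels do not say whether the hearts came from separate litters, so the p-values cover no more than the differences seen among these 6 samples.

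The regulators form a relay. PGC-1α and PGC-1β, the products of Ppargc1a and Ppargc1b, do not bind DNA themselves but are recruited by receptors and factors such as ERRα, ERRγ, PPARα, NRF1 and GABP at genes for respiration and fat oxidation. NRF1 and GABP (also called NRF2, with GABPα as its DNA-binding subunit) switch on nuclear genes of the respiratory chain and of the mitochondrial transcription machinery, among them Tfam and Tfb2m. TFAM packages mitochondrial DNA and, with TFB2M and the mitochondrial RNA polymerase, starts its transcription. In the heart this network is best known for the expansion of mitochondria around birth, when the muscle turns from glucose and lactate to fatty acids. HIF1, the oxygen-regulated factor whose subunit Hif1a encodes, is known for the opposite pole of metabolism, glycolysis.

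The start of each gene was searched for the words these factors read, on both strands of the 250 bases before the RefSeq start (GRCm38.p6). The table of starts held 9 of the 10 genes with 13 starts between them. Stretches of Tfam, Gabpa and Tfb2m are shown because these genes moved together across the hearts, as did Esrrg, which is not shown. Ppargc1a is shown for the word ACGTG, which HIF1 can read and which Ppard also holds. Each stretch below runs 5′ to 3′ on the strand of the gene. Capitals mark the ETS word CCGGAAG (read by GABP and other ETS factors) or the HIF core words ACGTG and GCGTG, on either strand.
Tfam, chr10:71238074-71238103, minus strand: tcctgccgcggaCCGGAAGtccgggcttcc
Gabpa, chr16:84835019-84835048, plus strand: ggagggtaagtgCTTCCGGgtccctcagct
Tfb2m, chr1:179546321-179546350, minus strand: acccggagagtcCACGCacaggagcctggg
Ppargc1a, chr5:51567759-51567788, minus strand: caggtgccctccCACGTcactgagctccag

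The ETS word occurred in the windows of Tfam (47 bases before the start) and Gabpa (93 bases before) and in 6.907% of all 32851 windows. No window of Esrrg or Tfb2m held it. ACGTG occurred in Ppargc1a (51 bases before) and Ppard, against 16.572% of all windows, and the commoner GCGTG in 9 of the 13 member windows, against 28.157%. The NRF1 palindrome GCGCATGCGC occurred only in Ppara among the members (0.782% of all windows). Its shorter form CATGCGC, which the palindrome contains, was in Ppara and Esrra (3.236%). No member window held the ERR half-site AAGGTCA (4.079%), the CREB site TGACGTCA (1.546%) or the E-box CACGTG, which contains ACGTG (6.021%), and Esrra alone held the ATF4 composite word TGATGNAA (3.452%). The RefSeq starts are not always those of GENCODE M21. There the printed stretch of Tfam lies inside the gene, in the untranslated part of its first exon, and that of Gabpa inside the gene, from the end of a first exon into the intron, while those of Tfb2m and Ppargc1a lie outside their genes. These are matches of letters in a short window and say nothing of binding.

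None of the 9 tested regulators passed the test for a difference between the genotypes. Values are read as RPKM, a unit inferred from the numbers because the table names none, that is, read density per kilobase of the exons used for the gene, scaled to library size, so levels of different genes can be set side by side. Changes are mutant minus control on log2(RPKM + 1), where the pseudocount shrinks differences of weakly expressed genes, and were tested with limma over all 13080 genes that reached 1 RPKM in at least 3 hearts. Of these genes 107, or 0.818%, passed a Benjamini-Hochberg adjusted p of 0.05, 0.42% as higher and 0.398% as lower, and 0 of the 9 regulators did. At an unadjusted limma p under 0.05 the count was 1 of 9 (Ppargc1b), against 11.2% of all tested genes. The median log2 change of the 9 was −0.01, beside −0.03 for all tested genes, and 3 of 9 were positive, beside 42.6%. Whole hearts were sequenced, so fewer cells of a type and less RNA per cell cannot be told apart in any of these values. The intervals set how much could have been missed. Over the 9 genes the 95% intervals of limma reached no further than 0.52 in either direction, and 0.52 was also the smallest change among the 107 genes that passed.

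**Figure D1:**
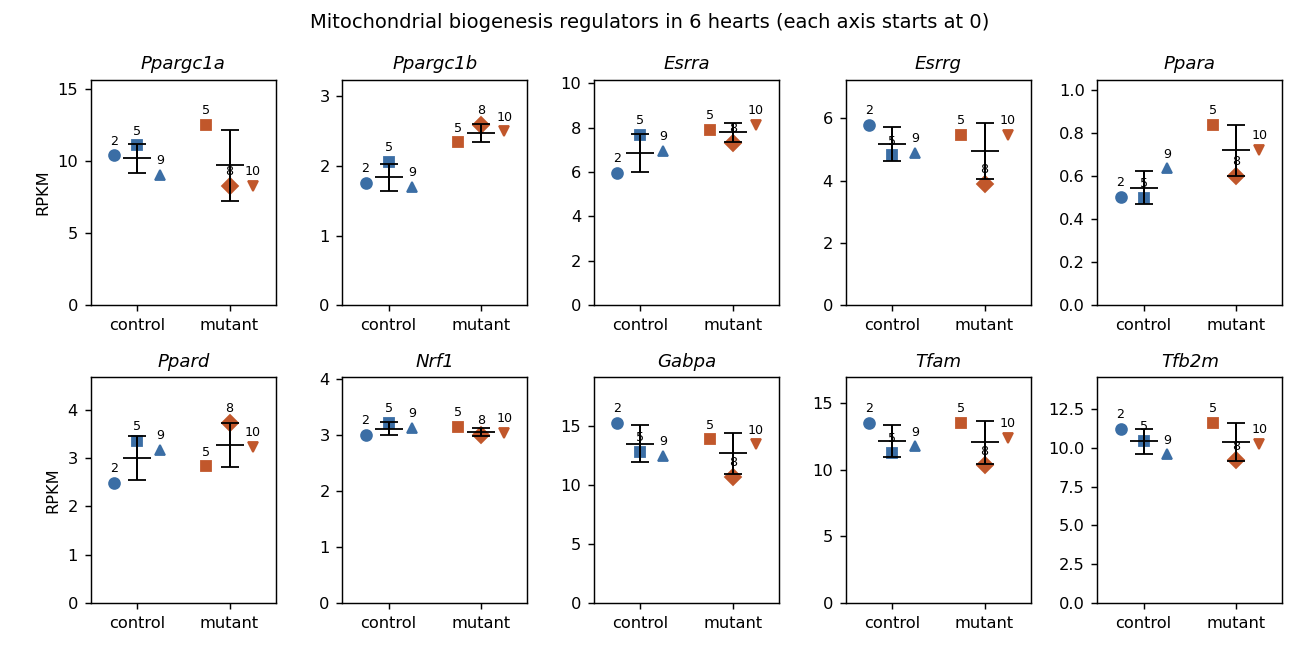
RPKM of each regulator in the 3 control hearts (blue) and 3 mutant hearts (orange), with the heart's number beside each point and black bars for the mean and SD of 3 hearts. Ppargc1b is the only panel of 10 in which every mutant heart lies above every control heart (2.34 to 2.59 against 1.70 to 2.05 RPKM).

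Ppargc1a, the coactivator best known for driving mitochondrial biogenesis, showed no detectable difference between the genotypes. It is annotated in GENCODE M21 (mm10) on chromosome 5, 51454250 to 51567726, minus strand. It measured 10.4, 11.1 and 9.04 RPKM in controls 2, 5 and 9 and 12.49, 8.29 and 8.26 RPKM in mutants 5, 8 and 10. Mutant 5 was the highest of all 6 hearts and the other mutant hearts were the lowest, so the genotypes overlapped fully. The control mean was 10.2 ± 1.03 RPKM and the mutant mean 9.68 ± 2.43 RPKM (SD, n = 3 each). The log2 change was −0.08 ± 0.16 SE (95% interval −0.43 to 0.27, limma adjusted p = 0.86).

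Ppargc1b, its close relative, had the largest difference of the 9 tested regulators and did not pass the test. The gene lies on chromosome 18, 61298136 to 61400431, minus strand. It measured 1.75, 2.05 and 1.70 RPKM in controls 2, 5 and 9 and 2.34, 2.59 and 2.49 RPKM in mutants 5, 8 and 10. All mutant hearts were above all control hearts. Such a separation in either direction was seen in 17.0% of all tested genes, and in 1 of the 9 regulators. The means were 1.83 ± 0.192 and 2.47 ± 0.128 RPKM (SD, n = 3 each), a ratio of 1.35. The log2 change was 0.29 ± 0.10 SE (95% interval 0.07 to 0.52, unadjusted p = 0.015, limma adjusted p = 0.30). About 840 to 1600 reads per heart stand behind these values, so counting error was at most 3.45%, against SDs of 10.5% and 5.16% of the mean within control and mutant hearts.

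The balance of the coactivators was compared within each heart, a ratio chosen after the values were seen, together with those of the other paralogous pairs. Ppargc1b stood at 0.169, 0.1856 and 0.1877 of Ppargc1a in controls 2, 5 and 9 and at 0.187, 0.3123 and 0.3019 in mutants 5, 8 and 10. Mutant 5 lay among the control hearts, below control 9. The difference in the log2 ratio was 0.53 (exact two-sided permutation p = 0.20, where 3 against 3 hearts cannot go below 0.10). Over the 3 pairs compared the adjusted exact permutation p was 0.40 for each.

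Among the nuclear receptors, Esrra and Esrrg encode ERRα and ERRγ, orphan receptors that bind the same DNA element and turn on genes of respiration and fat oxidation. Esrra (chromosome 19, 6910977 to 6921813, minus strand) measured 5.97, 7.68 and 6.96 RPKM in controls 2, 5 and 9 and 7.90, 7.32 and 8.12 RPKM in mutants 5, 8 and 10. Control 2 was the lowest heart, and control 5 lay above mutant 8. The means were 6.87 ± 0.861 and 7.78 ± 0.418 RPKM (log2 change 0.16 ± 0.11 SE, 95% interval −0.08 to 0.41, limma adjusted p = 0.61).

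Esrrg (chromosome 1, 187608791 to 188214885, plus strand) measured 5.79, 4.81 and 4.89 RPKM in controls 2, 5 and 9 and 5.46, 3.91 and 5.48 RPKM in mutants 5, 8 and 10. Control 2 was the highest and mutant 8 the lowest heart, and between them mutants 5 and 10 lay above controls 5 and 9. The means were 5.17 ± 0.544 and 4.95 ± 0.901 RPKM (log2 change −0.06 ± 0.13 SE, 95% interval −0.36 to 0.24, limma adjusted p = 0.89). The ratio of Esrra to Esrrg ranged from 1.0302 to 1.5965 in control and from 1.4475 to 1.8721 in mutant hearts (exact two-sided permutation p = 0.40).

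Ppara and Ppard encode fatty-acid-sensing receptors that pair with RXR. Ppara, the main driver of fat oxidation in the adult heart, was the lowest of the 10 genes. On chromosome 15 (85734983 to 85802819, plus strand), it stayed under 1 RPKM in every heart and so was not among the tested genes. It measured 0.5045, 0.5001 and 0.6358 RPKM in controls 2, 5 and 9 and 0.8382, 0.600 and 0.7199 RPKM in mutants 5, 8 and 10. The genotypes overlapped, with mutant 8 below control 9. The log2 change was 0.15, and with no filter on low values limma gave a 95% interval of −0.07 to 0.37 and an adjusted p = 0.58.

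Ppard (chromosome 17, 28232700 to 28301474, plus strand) measured 2.48, 3.36 and 3.16 RPKM in controls 2, 5 and 9 and 2.83, 3.74 and 3.23 RPKM in mutants 5, 8 and 10. Its hearts ran roughly opposite to those of Esrrg, with mutant 8 highest and control 2 lowest. The log2 change was 0.09 ± 0.12 SE (95% interval −0.19 to 0.38, limma adjusted p = 0.81). Ppard exceeded Ppara in all 6 hearts, by 3.3754 to 6.7217 times. That ratio was 5.48 in control and 4.55 in mutant hearts as a geometric mean (exact two-sided permutation p = 0.40).

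Of the DNA-binding factors that control respiratory genes, neither passed. Nrf1, which binds the palindromic word named above (chromosome 6, 30047988 to 30153458, plus strand), measured 3.00, 3.22 and 3.13 RPKM in controls 2, 5 and 9 and 3.14, 3.00 and 3.04 RPKM in mutants 5, 8 and 10. It was the steadiest of the 10 genes, with 0.08 on the log2 scale between its highest and lowest heart, against 0.29 to 0.54 for the other 9. Its log2 change was −0.02 ± 0.09 SE (95% interval −0.22 to 0.18, limma adjusted p = 0.95).

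Gabpa (chromosome 16, 84834925 to 84863779, plus strand) had the highest mean value of the 10. It measured 15.3, 12.8 and 12.46 RPKM in controls 2, 5 and 9 and 13.9, 10.7 and 13.45 RPKM in mutants 5, 8 and 10. Again control 2 was highest and mutant 8 lowest. The log2 change was −0.09 ± 0.12 SE (95% interval −0.37 to 0.19, limma adjusted p = 0.82). Gabpa shares 397 exon bases with Atp5j, an ATP synthase gene on the other strand with 301 ± 27.0 RPKM in control hearts and 313 ± 36.1 RPKM in mutant hearts. The labels do not state whether the counting used strand, so reads from the shared bases cannot be assigned to one of the genes. All 397 lie in the exons used for Gabpa, so its level and rank could include reads of Atp5j. Esrra shares 73 exon bases with Trmt112 and 91 with the microRNA gene Mir6990.

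Tfam and Tfb2m, the proteins that act on mitochondrial DNA itself, had the smallest changes of the 9. Tfam (chromosome 10, 71225464 to 71238280, minus strand) measured 13.6, 11.25 and 11.8 RPKM in controls 2, 5 and 9 and 13.5, 10.3 and 12.4 RPKM in mutants 5, 8 and 10. Its means were 12.2 ± 1.22 and 12.1 ± 1.62 RPKM (log2 change −0.01 ± 0.12 SE, 95% interval −0.29 to 0.26, limma adjusted p = 0.97). Tfb2m (chromosome 1, 179528055 to 179546267, minus strand) measured 11.2, 10.5 and 9.59 RPKM in controls 2, 5 and 9 and 11.65, 9.20 and 10.3 RPKM in mutants 5, 8 and 10. Its means were 10.4 ± 0.827 and 10.4 ± 1.23 RPKM (log2 change −0.01 ± 0.11 SE, 95% interval −0.26 to 0.24, limma adjusted p = 0.98). In both genes mutant 8 was the lowest heart and mutant 5 and control 2 were the highest pair.

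**Figure D2:**
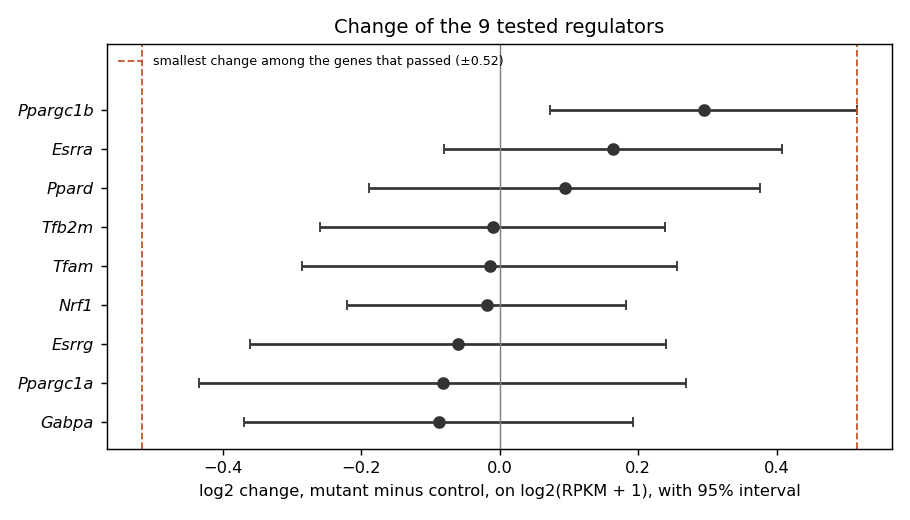
Log2 change of the 9 tested regulators (points, mutant minus control on log2(RPKM + 1)) with 95% intervals from limma, and dashed lines at 0.52 either way, the smallest change among the 107 genes that passed. Only the interval of Ppargc1b (0.07 to 0.52) lies wholly on one side of 0, and its adjusted p was 0.30.

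By control mean the genes ran from Gabpa (13.5 RPKM) through Tfam (12.2), Tfb2m (10.4), Ppargc1a (10.2), Esrra (6.87), Esrrg (5.17), Nrf1 (3.12), Ppard (3.00) and Ppargc1b (1.83) to Ppara (0.547). The median listed gene had 4.67 RPKM, and 6 of the 10 lay above it. Control ranges of Gabpa and Tfam overlapped, as did those of Tfb2m and Ppargc1a and those of Nrf1 and Ppard. Within each heart, however, Gabpa was above Tfam, with the limit set by the bases that Gabpa shares with Atp5j. The order of Tfb2m and Ppargc1a, and that of Nrf1 and Ppard, changed between hearts. Control ranges of the other neighbours did not overlap, with Tfam and Tfb2m nearly touching. Transcripts of Tfam and Tfb2m thus exceeded those of Ppargc1b and Ppara, and Esrra exceeded Ppara, in every heart.

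Across the 6 hearts several regulators moved in sets. Of the genes in these sets only Ppargc1b separated the genotypes. Esrrg, Gabpa, Tfam and Tfb2m moved together, with Pearson correlations of 0.82 to 0.97 between them over the 6 hearts, and Ppard ran against them (−0.82 to −0.93). Mutant 8 was the lowest heart for all 4 of that set, 0.16 to 0.30 below the gene's mean on the log2 scale. Ppargc1b and Esrra had a correlation of 0.72. Ppargc1a had one of 0.82 with Tfb2m, and 0.55, 0.53 and 0.44 with Tfam, Gabpa and Esrrg. These are descriptions over 6 hearts that share library and depth within a heart. The set of 4, Ppard and Ppargc1b also followed the main axis of the whole table, and Esrra did so less closely. The first principal component of the tested genes held 45.3% of the variance and ran from control 2 over control 5, mutant 5, control 9 and mutant 10 to mutant 8. Gabpa (−0.87), Esrrg (−0.78), Tfb2m (−0.77) and Tfam (−0.74) fell along it by Pearson correlation, and Ppard (0.86) and Ppargc1b (0.73) rose. The values were −0.69 for Ppargc1a, 0.49 for Esrra and −0.29 for Nrf1. None of the 9 went beyond 0.9 either way, as 11.3% of all tested genes did. Summed 5S ribosomal RNA ran the same way, from 10.7 RPKM in control 2 to 192 RPKM in mutant 8. The part of that axis in the values of the regulators was not tested. Without control 2 and mutant 8, Ppargc1b had a log2 change of 0.25 and Gabpa, Esrrg, Tfam and Tfb2m of 0.11, 0.14, 0.16 and 0.12, with limma adjusted p from 0.40 to 0.68.

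**Figure D3:**
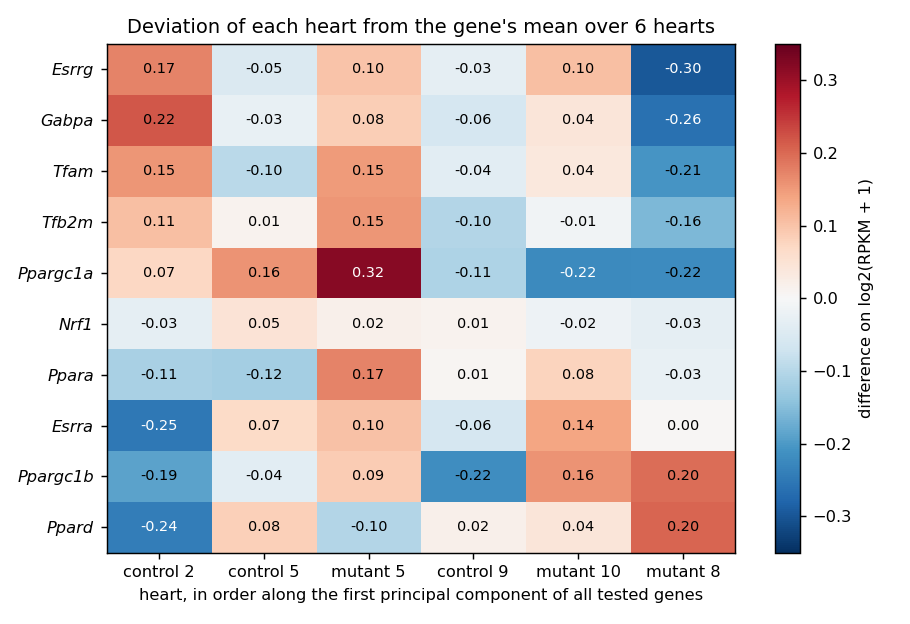
Difference of each heart from the gene's own mean over 6 hearts, on log2(RPKM + 1), with hearts in order along the first principal component. Esrrg, Gabpa, Tfam and Tfb2m are low in mutant 8 (−0.30 to −0.16) and high in control 2, Ppard is the reverse, and Nrf1 stays within 0.05 of its mean.

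Among 141 tested genes of 6 related lists, those with the pattern most like each regulator were named by Pearson correlation over the 6 hearts. For Ppargc1a they were the fat oxidation enzyme Ech1 (0.92) and the polymerase subunit Polg2 (0.89). For Ppargc1b they were the muscle carnitine palmitoyltransferase Cpt1b (0.95) and Fastkd1 (0.92), and for Esrra the import motor protein Timm44 (0.98). Esrrg was most like Mterfd1 (0.97) and the calcineurin subunit Ppp3cb (0.97), Ppard most like Nos3 (0.96) and Tomm6 (0.94), and Nrf1 most like Mterfd2 (0.92) and Hadha (0.79). Gabpa was most like the inner membrane protease Yme1l1 (0.99) and the fission factor Mff (0.98), Tfam most like Yme1l1 and the import receptor Tomm70a (both 0.93), and Tfb2m most like Tomm70a (0.93) and Mef2a (0.92). Each correlation was the highest or next highest of 141 over 6 hearts and is a description of these hearts. Those of Nrf1, whose values hardly varied, depended on the scaling, with 0.04 for Mterfd2 and −0.19 for Hadha once each heart was centred on its median. The Hadha value was also 0.46 without control 5, and that of Ppargc1a with Polg2 was 0.75 without mutant 5.

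The wider network was read from the same fit, in lists chosen with earlier results of these data known. Of 23 tested coregulators and partners none passed (median log2 change −0.07, 10 positive), and 0 had an unadjusted limma p under 0.05. The mitochondrial deacetylase Sirt3 had 8.26 ± 0.796 RPKM in control hearts and 9.48 ± 0.109 RPKM in mutant hearts, and the corepressor Nrip1 1.47 ± 0.152 and 1.24 ± 0.0379 RPKM (limma adjusted p = 0.53 and 0.62). The Mediator subunit Med1 measured 4.20 and 3.71 RPKM and Hcfc1 11.3 and 10.2 RPKM. Of 21 upstream kinases and factors none passed either (median −0.02, 8 positive, 0 at an unadjusted limma p under 0.05). The catalytic subunits of AMP-activated kinase, which phosphorylates PGC-1α, measured 11.6 ± 1.74 and 10.1 ± 2.05 RPKM for Prkaa2 and 7.65 ± 0.613 and 6.93 ± 0.902 RPKM for Prkaa1 (limma adjusted p = 0.66 and 0.71). Its subunit Prkab2 measured 5.59 and 4.99 RPKM and the muscle factor Mef2a 18.0 and 16.2 RPKM.

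In the list for maintenance and transcription of mitochondrial DNA 1 of 28 tested genes rose, none fell, and 13 were positive (median −0.02). Over all tested genes 0.42% rose, 0.398% fell and 42.6% were positive (median −0.03). Mutant hearts lay wholly above control hearts in 6 of the 28 and wholly below in 1. Among all tested genes 7.6% lay wholly above, and 17.0% were separated in either direction. At an unadjusted limma p under 0.05, 2 were higher and 0 lower, against 11.2% of all tested genes in either direction. The gene that rose was Slc25a33 (chromosome 4, 149744036 to 149774277, minus strand), a carrier that brings pyrimidine nucleotides into mitochondria. It measured 1.81, 1.52 and 1.81 RPKM in controls 2, 5 and 9 and 4.05, 3.60 and 3.63 RPKM in mutants 5, 8 and 10. Every mutant heart was above every control heart. It rose from 1.71 ± 0.170 to 3.76 ± 0.248 RPKM (SD, n = 3 each), with a log2 change of 0.81 ± 0.10 SE (limma adjusted p = 0.0066). It passed in each of the 14 alternative fits that tested it (limma adjusted p between 0.0032 and 0.046). The matrix protease Lonp1, which degrades TFAM, measured 17.9 ± 1.39 and 23.7 ± 0.985 RPKM without overlap and did not pass (log2 change 0.39 ± 0.09 SE, limma adjusted p = 0.14). The RNA-binding protein Lrpprc measured 18.1 and 21.4 RPKM and the carrier Slc25a36 10.6 and 8.36 RPKM (limma adjusted p = 0.51 and 0.47).

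Protein import genes, which deliver the products of such programmes into mitochondria, were mostly positive without any passing the test. Of 31 tested genes 27 had a positive log2 change, against 42.6% of all tested genes, and in 15 of them every mutant heart exceeded every control heart, against 7.6%. At an unadjusted limma p under 0.05, 12 of the 31 were higher and 0 lower, beside 11.2% of all tested genes in either direction. The median was 0.17, beside −0.03 for all tested genes. Because the list was chosen with earlier results of these data known, this skew is a description of these hearts. The chaperone Hspa9 measured 162 ± 5.42 and 217 ± 18.1 RPKM, Timm10 31.4 ± 0.735 and 40.8 ± 0.682 RPKM, Timm13 50.2 ± 6.41 and 70.4 ± 10.9 RPKM and Chchd4 16.7 ± 0.979 and 20.7 ± 1.28 RPKM (limma adjusted p = 0.12, 0.11, 0.21 and 0.26). The merged length of all annotated exons of a gene moved with the changes in this table. When protein-coding genes were divided into 5 groups by exon length, the median change was 0.06 for the shortest and −0.09 for the longest. Import genes had a median exon length of 3528 bases, in the group of 2484 to 3780 bases, whose median change was −0.0076 beside the 0.17 of the import list. Timm10 and Timm13, with 815 and 1371 bases, fell in the shortest group. Hspa9 and Chchd4, with 4310 and 5192 bases, fell in a group with a median of −0.02. The tested regulators had 5687 bases, in a group with a median of −0.06. No gene-by-gene adjustment for length was made.

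Genes that PPAR and ERR receptors are known to activate were split in direction. Of 29 tested none passed and 15 were positive (median 0.07), with 4 higher and 1 lower at an unadjusted limma p under 0.05. Over all tested genes 42.6% were positive and 11.2% had such a p in either direction. Mutant hearts lay wholly above control hearts in 6 of the 29 genes and wholly below in 1. Among all tested genes 7.6% lay wholly above, and 17.0% were separated in either direction. Cpt1b measured 45.2 ± 2.46 and 56.0 ± 3.50 RPKM, the adenine nucleotide carrier Slc25a4 501 ± 23.5 and 599 ± 23.4 RPKM and the muscle cytochrome oxidase subunit Cox6a2 118 ± 5.36 and 144 ± 16.2 RPKM, each without overlap. The pyruvate dehydrogenase kinase Pdk4 went the other way, with 5.94 ± 0.127 and 4.67 ± 0.430 RPKM, also without overlap. Limma adjusted p lay between 0.25 and 0.36 for these 4 genes. Of 9 fusion and fission genes none passed (median 0.00, 0 at an unadjusted limma p under 0.05), with the mitofusins Mfn2 at 19.0 and 21.5 RPKM and Mfn1 at 13.3 and 14.5 RPKM, the fission factor Mff at 37.6 and 33.7 RPKM and Fis1 at 50.8 and 54.1 RPKM.

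**Figure D4:**
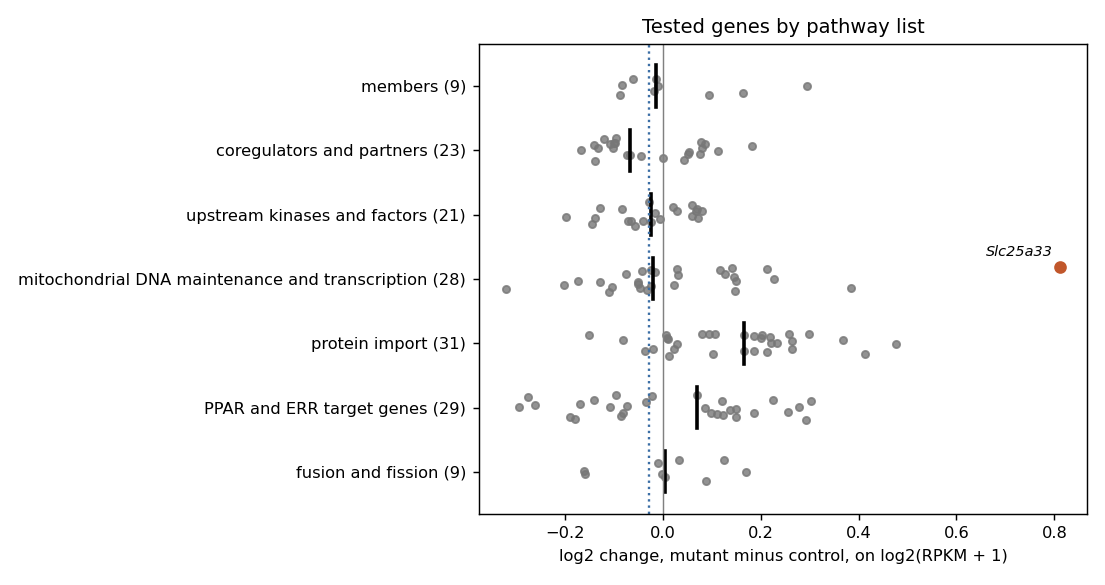
Log2 change of every tested gene (points, mutant minus control) in the regulators and the 6 related lists, with the number tested in brackets, black bars for the list's median and a dotted line for the median of all tested genes (−0.03). Slc25a33 (0.81, orange) is the only gene here that passed, and the import genes are centred at 0.17.

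Heart muscle genes were abundant, with all 10 cardiomyocyte markers in the table, summing to 17600 to 19220 RPKM in control and 18426 to 19792 RPKM in mutant hearts. Among all tested genes 42.6% had a positive change, and 17.0% separated the genotypes in either direction. Summed macrophage markers were lower in the mutant hearts (8.05 to 21.6 RPKM against 25.5 to 29.8 RPKM, 7 of 7 with a negative change). In 5 of these 7 every mutant heart was below every control heart. The joint sum of epicardial and mesenchymal markers was also lower (262 to 376 against 406 to 469 RPKM, 7 of 8 negative). In control hearts Col1a1, Col1a2, Col3a1 and Postn had the highest means in that sum. Only Col1a1 and Col1a2 were lower without overlap. The epicardial markers Wt1, Tbx18, Tcf21 and Upk3b each overlapped, and Upk3b had a log2 change of 0.04. Summed endothelial markers overlapped narrowly (73.8 to 85.5 against 85.2 to 98.5 RPKM, 5 of 7 negative). In 3 of the 7, Cdh5, Kdr and Cldn5, every mutant heart was below every control heart (limma adjusted p = 0.38, 0.20 and 0.064). No marker of the cardiomyocyte, macrophage, epicardial and mesenchymal or endothelial lists passed. Erythroid markers summed to 13961 to 16570 RPKM in control and 11718 to 21062 RPKM in mutant hearts (5 of 8 negative). Of the liver, skeletal muscle and neural markers 3 were in the table, and their sum was higher in the mutant hearts (5.61 to 6.13 against 3.72 to 4.40 RPKM). Neuronal Tubb3 measured 1.65 ± 0.338 and 2.65 ± 0.511 RPKM without overlap and hepatic Apoa2 1.42 ± 0.491 and 2.22 ± 0.325 RPKM with overlap (limma adjusted p = 0.25 and 0.33). No marker in the table was at 0, and Alb, Myod1 and Myog were not among its rows. The part of cell mixture in the values of the regulators was not tested. Hif1a itself stood at 51.3 ± 8.54 RPKM in control and at 69.5 ± 12.6 RPKM in mutant hearts (limma adjusted p = 0.36), a value over all exons used that does not check the deletion. Without control 2 and mutant 8 it passed, as higher in the mutant hearts (log2 change 0.71 against 0.43, limma adjusted p = 0.013, and between 0.14 and 0.73 in the other alternatives). The spacing of low values implies 101500000 reads in mutant 8, the shallowest library, and 159100000 in mutant 10, the deepest.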

How the data were processed

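RNA-seq libraries of 6 hearts were prepared from total RNA by Illumina's standard method, per the labels' protocols. The submitters' processing notes name Trim Galore, TopHat2 and the build mm10. How reads were assigned to genes, and whether by strand, is not stated in the labels. The authors deposited linear values for 15118 genes, with the constitutive exons used but no unit in the header. The values deposited by the authors were read here as RPKM over those exons, a unit inferred because value times exon length fell in whole steps. In single-exon genes 83.3% to 91.0% of such low products fell within 0.1 of a whole multiple of a common step, which gave the depths. The test was limma 3.58.1 in R 4.3.3, fitted to log2(RPKM + 1) of all 6 hearts with a trend in the prior variance and no covariates. It covered genes of at least 1 RPKM in at least 3 libraries (13080 tested, 2038 not). The same fit was run on simulated data with independent noise for each gene and planted changes larger than those of the regulators. Those data held no axis shared by many genes, so that run does not show how the test behaves with one. All p-values are two-sided. Named genes are the 10 regulators, Hif1a, genes of the 6 related lists past the threshold and the 4 with the smallest p in each, and for each tested regulator the 2 list genes with the highest Pearson correlation, except for Esrra, where the next highest is not reported here. Members and lists were chosen with earlier results of these data known. Coordinates are from GENCODE M21, which held 14877 of the gene identifiers. Figures were drawn with matplotlib 3.10.9. The 15 alternatives varied centring, filter, trend, prior, pseudocount, scaling and hearts.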

Additional observations from a re-analysis of the deposited data

How the results depend on the processing

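None of the 9 tested regulators passed limma's threshold in any of the 15 alternative fits that tested them. Ppargc1b (0.13 to 0.41, limma adjusted p between 0.19 and 0.58) and Esrra (0.08 to 0.24) stayed positive throughout. Of 142 alternative values of the 10 genes 19 changed sign, none past the threshold. After median centring Nrf1, Tfam and Tfb2m had log2 changes of 0.016, 0.020 and 0.025. Without control 2 and mutant 8 Ppargc1a, Esrrg, Ppard, Gabpa, Tfam and Tfb2m had 0.022, 0.144, −0.082, 0.106, 0.159 and 0.116, Prkaa2, Prkaa1, Mef2a and Mff 0.057, 0.018, 0.026 and 0.072, and the log2 ratio of Esrra to Esrrg −0.040. Hif1a passed there (0.714, limma adjusted p = 0.013). Among Hif1a, the regulators and the list genes named for their p, it alone gained a call under an alternative. The other correlated genes and the markers were not checked for such calls. Leaving out each heart in turn gave −0.263 to 0.0084 for Ppargc1a, −0.128 to 0.072 for Esrrg, −0.0038 to 0.169 for Ppard, −0.153 to 0.020 for Gabpa, −0.093 to 0.086 for Tfam and −0.090 to 0.065 for Tfb2m. Ppara, on a low level, had 0.338 with a pseudocount of 0.1 and 0.044 with 5, and the log2 ratio of Ppard to Ppara was 0.0031 with 5.

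Genes past the threshold numbered 40 to 198 over the fits without a heart (22 to 85 higher, 14 to 113 lower). The extremes were without mutant 10 (40) and mutant 5 (198), with 52, 43 and 67 without control 2, 5 or 9. Lower genes were 34 with centred medians and 79 when haemoglobin genes were left out of the scaling. With a minimum of 5 RPKM Slc25a33 was not tested, leaving 0 calls in its list, and the medians of that list and of the coregulators were 0.118 and 0.052. Without control 2 and mutant 8 the median of the mitochondrial DNA list was 0.064. The import median was 0.2005 after centring and 0.124 after rescaling. Leaving out each heart in turn moved that median from 0.110 (without control 5) to 0.176, that of the mitochondrial DNA list from −0.041 to 0.059 and that of the PPAR and ERR targets from −0.015 (without control 2) to 0.108. The cause of these shifts was not tested. No paired analysis was possible because the genotypes share a single sample number.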
